A study of Mus musculus with 16 samples.

Results

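Under interleukin-6 (IL-6), Ba/F3 cells with the receptor labelled ChimP3V3:gp130Box1/2 were compared with Ba/F3 cells labelled gp130:IL-6R wt, across all genes of the deposited table. The 8 libraries were chosen by their labels alone: 4 libraries of ChimP3V3 cells and 4 of gp130:IL-6R cells, all given IL-6 at 100 ng/ml, out of 16 libraries in the series. The other 8 libraries, 4 of each line in medium without IL-6, show which differences between the lines were there without the cytokine. The time under IL-6 and whether interleukin-3 (IL-3) was present are not given in the sources used here.

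Ba/F3 is a mouse haematopoietic line that grows on IL-3 and is described as pro-B. Each receptor is represented by 1 line, so the receptor and the line that carries it cannot be told apart in any value below. Whether a line is 1 clone or a pool of transduced cells is not given in the sources used here. Nothing in the labels says that the 4 libraries of a group came from separate cultures, so p-values measure only the spread between these libraries, which may be technical. Counts of library pairs within a group differed by close to sampling noise, with a chi-square per degree of freedom between 1.03 and 1.15 in ChimP3V3 cells and between 0.989 and 1.18 in gp130:IL-6R cells.

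IL-6 acts through gp130, a receptor chain that many cytokines share and that the gene Il6st encodes. Near the membrane, gp130 carries the box1 and box2 motifs, to which JAK kinases bind, and tyrosines farther along the tail recruit STAT3 once they are phosphorylated. Another tyrosine binds the phosphatase SHP2, which leads to the ERK pathway, and the STAT3 target SOCS3, which shuts the receptor off. The series title describes synthetic receptor complexes made of 3 chains whose output is mainly STAT3 phosphorylation. No protein or phosphorylation was measured in these files.

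Libraries held 1275112 to 1394849 counts in ChimP3V3 cells and 1427596 to 1594557 counts in gp130:IL-6R cells. Values are CPM, the counts of a gene scaled by TMM-adjusted library size, from a kit that reads the 3' ends of polyadenylated RNA. A count of 0 over the 4 libraries of a group allows a level of up to 0.568 CPM in ChimP3V3 cells and 0.507 CPM in gp130:IL-6R cells under IL-6. Mitochondrial genes took 1.66% to 1.75% of the counts in ChimP3V3 cells and 1.43% to 1.62% in gp130:IL-6R cells. Of 25650 genes, 9540 had enough counts to be tested.

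The lines differed in most of what they express. Of the 9540 genes, 5992 (62.8%) passed an adjusted p of 0.05 in edgeR's quasi-likelihood test, which is what "called" means here. In ChimP3V3 cells 2977 of them (31.2%) were higher and 3015 (31.6%) were lower. The median size of the difference over all tested genes was 0.374 on the log2 scale. At least a 2-fold difference was seen for 682 higher and 816 lower genes, and at least a 4-fold difference for 226 higher and 331 lower genes. For 5233 genes (54.9%) the 4 libraries of one line did not overlap with the 4 of the other. In the authors' deposited values 3445 genes passed a cut-off, set here, of 1.5-fold and a false discovery rate of 0.05. Of these, 1555 were higher and 1890 lower in ChimP3V3 cells. The like count from the test used here, with a fold of at least 1.5 added, was 3078, with 1474 higher and 1604 lower. The list counts below stand against the shares of all tested genes. These were 31.2% higher and 31.6% lower under IL-6, and 31.7% higher and 33.4% lower in medium.

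Il6st was detected in gp130:IL-6R cells and in no ChimP3V3 library. Il6st, on chromosome 13 (112600604 to 112646620, GRCm39), had 0 CPM in all 4 ChimP3V3 libraries, against 178, 187, 177 and 176 CPM in gp130:IL-6R cells. That is at least 316-fold lower in ChimP3V3 cells. The gene was also at 0 in all ChimP3V3 libraries in medium. Whether reads of an introduced receptor are counted under Il6st was not tested. Il6ra, the mouse gene of the IL-6 receptor alpha chain, was too low to test, with 0 CPM in every ChimP3V3 library and 0 to 0.69 CPM in gp130:IL-6R cells.

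The genes around the receptor moved in both directions. Of 34 tested genes for receptors, JAK kinases, STAT factors and their adaptors, 15 were higher and 10 were lower in ChimP3V3 cells. Il6st is among the 10 lower genes. The shares over all tested genes were 31.2% higher and 31.6% lower. The median log2 difference of the list was 0.11. Csf2rb, the common beta chain of the IL-3 receptor, had 448, 459, 476 and 511 CPM in ChimP3V3 cells, against 335, 338, 355 and 349 CPM in gp130:IL-6R cells. Its log2 difference was 0.46 (SE 0.0429, adjusted p = 2.51e-12). Ptpn6, which encodes the inhibitory phosphatase SHP-1, had 330, 316, 330 and 329 CPM in ChimP3V3 cells and 89.2, 85.5, 94.2 and 96 CPM in gp130:IL-6R cells. Both genes were higher in every ChimP3V3 library than in any gp130:IL-6R library. Gab1, an adaptor that links cytokine receptors to SHP2 and PI3-kinase, was 5.02-fold higher at 39.8, 40.1, 61.3 and 37.8 CPM in ChimP3V3 cells, against 7.49, 10.1, 9.7 and 8.21 CPM in gp130:IL-6R cells. Ifnar2, a chain of the type I interferon receptor, was 4.75-fold lower at 70.8, 62.4, 94.6 and 86.8 CPM in ChimP3V3 cells, against 363, 365, 386 and 375 CPM in gp130:IL-6R cells.

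The 2 STAT genes that sit side by side on chromosome 11 differed in opposite directions. Stat3 had 220, 217, 220 and 220 CPM in ChimP3V3 cells, against 280, 302, 307 and 291 CPM in gp130:IL-6R cells (log2 difference -0.43, SE 0.0487, adjusted p = 4.63e-10). Stat5a, the main STAT factor of IL-3 signalling together with its neighbour Stat5b, had 48.4, 53.5, 42.7 and 37 CPM in ChimP3V3 cells, against 26.6, 22.3, 22.9 and 20.8 CPM in gp130:IL-6R cells (log2 difference 0.98, SE 0.162, adjusted p = 1.44e-06). The groups did not overlap for either gene. Stat3 and Stat5a overlap on opposite strands and the strand setting of the counting is not given, so their counts are uncertain.

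**Figure D1:**
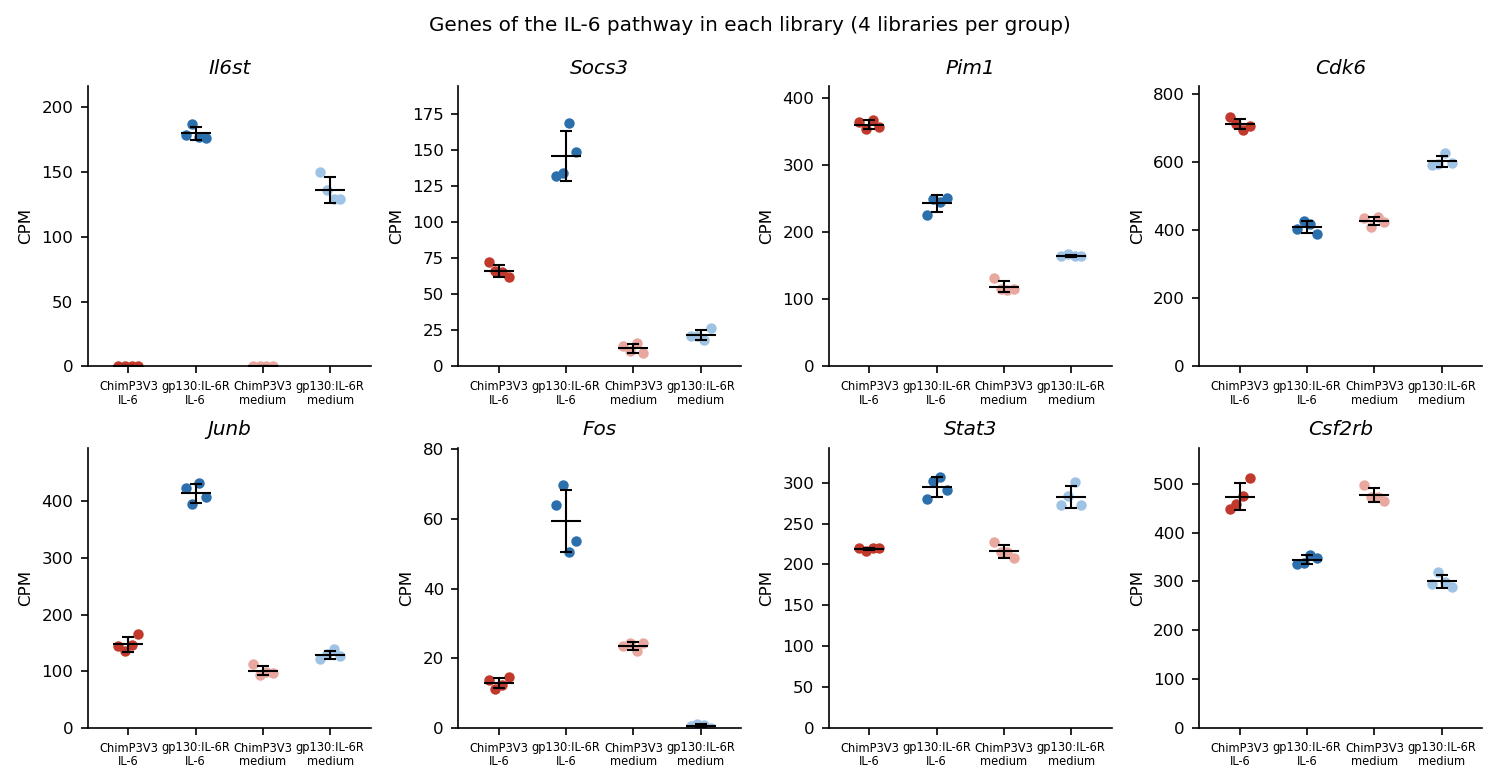
CPM (vertical axis, from 0) of 8 genes in each of the 16 libraries. Points are libraries, the long bar is the mean and the whiskers are the SD of 4 libraries. Il6st is at 0 in all ChimP3V3 libraries, Socs3 is lower and Pim1 and Cdk6 are higher in ChimP3V3 cells under IL-6, and Fos is higher in ChimP3V3 cells in medium but lower under IL-6.

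STAT3 targets were more often lower than higher in ChimP3V3 cells. Of 24 tested genes on the list, 5 were higher and 14 were lower, with a median log2 difference of -0.55. The lower genes include Il6st, the receptor gene itself, for which the source of the reads was not tested. They also include Junb, which is on the early ERK list too, and Cebpb, which is on the stress response list too. In medium the same list had 6 higher and 12 lower genes and a median of -0.30, and 15 members were called in the same direction in both conditions. Socs3, the feedback inhibitor that binds gp130, had 72.3, 66.2, 65.2 and 61.9 CPM in ChimP3V3 cells, against 132, 134, 169 and 149 CPM in gp130:IL-6R cells. It was 2.19-fold lower (log2 difference -1.13, SE 0.0889, adjusted p = 1.29e-14). In medium Socs3 averaged 12.7 CPM in ChimP3V3 cells and 21.9 CPM in gp130:IL-6R cells, a log2 difference of -0.79. The change between the conditions was -0.35 (SE 0.23, adjusted p = 0.299) and was not called.

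Socs3 is shown with the part of its promoter that holds a STAT site, since it is the target gene by which STAT3 output is usually read. The stretch is 5' to 3' on the minus strand within chr11:117969317-117969616 of GRCm38.p6 (RefSeq), an earlier build than that of the counts, and covers bases 166 to 134 before the start of the gene. Capitals mark the STAT site, TTCNNNGAA, which reads the same on both strands.
Socs3: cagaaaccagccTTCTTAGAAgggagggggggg
This motif was found in the 250 bases before the start of 7.27% of the 7735 tested genes with a promoter in the table. It was found for 7.02% of the genes that were higher and 7% of those that were lower in ChimP3V3 cells, and for 5 of 27 STAT3 targets. The 27 include genes that were not tested. Among all counted genes with a promoter, tested or not, the share was 8.13%. A match describes letters only.

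Other STAT3 targets differed from Socs3 in size or direction. Cebpb, a transcription factor of the acute-phase response, had 54.9, 57.2, 42.7 and 57.9 CPM in ChimP3V3 cells, against 185, 179, 161 and 167 CPM in gp130:IL-6R cells, and was 3.24-fold lower. Its gene overlaps Peds1 on the opposite strand. Osm, the cytokine oncostatin M, had 27.5, 32.7, 26.4 and 31.4 CPM in ChimP3V3 cells and 49, 47.4, 47.8 and 44.8 CPM in gp130:IL-6R cells (log2 difference -0.68, SE 0.127, adjusted p = 1.24e-05). Both were lower in every ChimP3V3 library. Pim1, a survival kinase induced by STAT3 and STAT5, went the other way, at 364, 354, 367 and 356 CPM in ChimP3V3 cells, against 225, 250, 245 and 251 CPM in gp130:IL-6R cells (log2 difference 0.57, SE 0.0448, adjusted p = 1.45e-14). In medium Pim1 had 131, 115, 114 and 115 CPM in ChimP3V3 cells, against 164, 167, 164 and 165 CPM in gp130:IL-6R cells, so the direction between the lines turned with IL-6 (change 1.05, SE 0.0764, adjusted p = 3.38e-14). Socs2, a feedback inhibitor best known from STAT5, was 1.55-fold higher under IL-6 and 2.64-fold higher in medium.

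The feedback inhibitors Socs1 and Cish, and Myc, did not pass the test between the lines under IL-6. Socs1 had 8.68, 9.66, 7.76 and 11.3 CPM in ChimP3V3 cells and 8.85, 5.75, 6.23 and 5.05 CPM in gp130:IL-6R cells, with an adjusted p of 0.166. Cish had 13, 16.4, 16.3 and 11.3 CPM in ChimP3V3 cells and 6.81, 12.2, 10.4 and 17 CPM in gp130:IL-6R cells, with an adjusted p of 0.371. Myc, a growth regulator downstream of both STAT factors, had 74.5, 80.3, 64.4 and 69.9 CPM in ChimP3V3 cells and 68.8, 68.2, 70.6 and 74.5 CPM in gp130:IL-6R cells (log2 difference 0.04, SE 0.0931, adjusted p = 0.776). The libraries of both lines overlapped for all 3 genes.

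Of 17 tested genes tied to STAT5 and IL-3, 6 were higher and 7 were lower in ChimP3V3 cells. The shares over all tested genes were 31.2% higher and 31.6% lower. The median log2 difference of the list was 0.07. Cdk6, a kinase that drives cells out of G1, had 732, 713, 696 and 708 CPM in ChimP3V3 cells, against 403, 426, 419 and 388 CPM in gp130:IL-6R cells (log2 difference 0.80, SE 0.0375, adjusted p = 4.68e-22). In medium it had 435, 410, 439 and 425 CPM in ChimP3V3 cells and 591, 595, 627 and 597 CPM in gp130:IL-6R cells. The order of the lines was reversed between the conditions, with no overlap in either (change 1.30, SE 0.0528, adjusted p = 4.47e-22). Pim2, a relative of Pim1, was 5.29-fold lower under IL-6 and 5.15-fold lower in medium. Tnfrsf13b, the receptor TACI, was 3.71-fold higher. Gzmb, the protease granzyme B, had 5.78, 2.23, 4.65 and 4.02 CPM in ChimP3V3 cells, against 193, 197, 198 and 189 CPM in gp130:IL-6R cells, and was 45.6-fold lower.

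Genes of the early ERK response and its feedback were lower in ChimP3V3 cells almost throughout. Of 26 tested, 23 were lower and 0 were higher in edgeR's test, against 31.6% lower and 31.2% higher of all tested genes, and the median log2 difference was -0.98. DESeq2 called 22 lower and 0 higher. In medium 12 of the 26 were lower and 7 were higher, with a median of -0.15. Of the 26, 7 were called in opposite directions under IL-6 and in medium. This list and its direction were known from earlier results of these data, so the count describes them and is no independent evidence.

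The AP-1 genes Fos and Fosb differed in opposite directions in the 2 conditions. Fos had 13.7, 11.1, 12.4 and 14.5 CPM in ChimP3V3 cells under IL-6, against 64, 69.7, 50.6 and 53.7 CPM in gp130:IL-6R cells (log2 difference -2.19, SE 0.157, adjusted p = 8.11e-16). In medium the order was the reverse, at 23.6, 24.4, 22 and 24.4 CPM in ChimP3V3 cells and 0.636, 1.2, 0.713 and 0 CPM in gp130:IL-6R cells (log2 difference 5.01, adjusted p = 1.11e-15). Fosb, its close relative, had 1.45, 1.49, 2.33 and 1.61 CPM in ChimP3V3 cells under IL-6, against 16.3, 21.5, 17.3 and 16.4 CPM in gp130:IL-6R cells. In medium Fosb averaged 15.7 CPM in ChimP3V3 cells and 0.788 CPM in gp130:IL-6R cells. Both genes therefore stood higher in ChimP3V3 cells without IL-6 and lower with it, and the changes of -7.20 and -7.46 on the log2 scale were the largest among genes called in opposite directions with a mean of at least 5 CPM.

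Jun and Junb were lower in ChimP3V3 cells in both conditions. Junb had 144, 135, 146 and 166 CPM in ChimP3V3 cells, against 423, 395, 433 and 407 CPM in gp130:IL-6R cells (log2 difference -1.49, SE 0.0533, adjusted p = 3.93e-26), and its difference in medium was -0.37. Junb overlaps Prdx2 on the opposite strand, so its counts are uncertain. Jun had 41.2, 52.8, 42.7 and 42.6 CPM in ChimP3V3 cells and 159, 139, 153 and 170 CPM in gp130:IL-6R cells, 3.46-fold lower. Dusp6, the phosphatase that switches ERK off, had 49.9, 53.5, 56.6 and 48.2 CPM in ChimP3V3 cells, against 98, 108, 103 and 99.8 CPM in gp130:IL-6R cells (log2 difference -0.97, SE 0.0887, adjusted p = 1.20e-12). Spry2, an inhibitor of receptor signalling to ERK, had 0, 0, 0.776 and 0.804 CPM in ChimP3V3 cells and 66, 54.6, 56.1 and 66.3 CPM in gp130:IL-6R cells. Its counts were 160-fold lower, with an exact 95% interval of 44.1 to 1329 for counting error only. Egr1 was too low to test in either line, with at most 0.773 CPM in ChimP3V3 cells and 2.76 CPM in gp130:IL-6R cells.

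Genes of blood-cell identity were among the largest differences. Of 12 named genes with the largest differences upward, 4 were globin genes and all 12 had 0 counts in every gp130:IL-6R library under IL-6. All 7 tested globin genes were called higher in ChimP3V3 cells. The 7 had enough counts to be tested only through ChimP3V3 cells, so the filter fixed their direction. The whole list of 10 summed to 3003 to 3121 CPM in ChimP3V3 cells, against 5.45 to 8.84 CPM in gp130:IL-6R cells. Hbb-bs, an adult beta globin, had 829, 851, 894 and 860 CPM in ChimP3V3 cells and 0 in gp130:IL-6R cells, at least 1692-fold higher. Hbb-bt, the other adult beta globin, had 278, 256, 251 and 268 CPM in ChimP3V3 cells and 0 in gp130:IL-6R cells, at least 518-fold higher. The embryonic beta globins Hbb-y and Hbb-bh1 were at least 466-fold and 131-fold higher. Hba-a1 and Hba-a2, the adult alpha globins, averaged 780 and 848 CPM in ChimP3V3 cells, against 1.22 and 6.23 CPM in gp130:IL-6R cells. Reads of near-identical globin copies can fit more than 1 gene, so the split within each pair is uncertain.

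Promoter stretches of 3 globin genes are shown because erythroid globin promoters are known for a CACCC box, bound by the erythroid factor KLF1. They are from RefSeq on GRCm38.p6, 5' to 3' on each gene's strand, with capitals on the match to CCNCNCCC. This search pattern is looser than CACCC. The capitals hold CACCC in Hbb-bs and Hbb-bt but not in Hba-x, so the Hba-x match is not a CACCC box by its letters. The windows are chr7:103827879-103828178 (minus) for Hbb-bs, chr7:103813874-103814173 (minus) for Hbb-bt and chr11:32276350-32276649 (plus) for Hba-x, an embryonic alpha globin.
Hbb-bs: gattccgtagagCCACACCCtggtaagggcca
Hbb-bt: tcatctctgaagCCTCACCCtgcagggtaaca
Hba-x: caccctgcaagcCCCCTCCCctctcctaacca
On either strand, 3 of 9 globin promoters and 67.4% of the 7735 tested genes held this motif within 250 bases before the start. The 9 include globins that were not tested. Among all counted genes with a promoter, tested or not, the share was 48.5%. Overlapping matches count once per promoter.

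Other erythroid and megakaryocyte genes moved with the globins. Of 20 tested, 16 were higher and 4 were lower in ChimP3V3 cells, both under IL-6 and in medium, with a median log2 difference of 1.43 under IL-6. Members near 0 in gp130:IL-6R cells, such as Rhag, were testable only through ChimP3V3 cells, so their direction was fixed. Klf1 had 123, 148, 142 and 137 CPM in ChimP3V3 cells, against 15.7, 16.5, 22.2 and 22.7 CPM in gp130:IL-6R cells, 7.07-fold higher. The difference was smaller in medium, 2.22-fold (change 1.67, SE 0.161, adjusted p = 7.76e-11). Rhag, a red-cell membrane protein, had 111, 87.7, 119 and 114 CPM in ChimP3V3 cells and a single count in the 4 gp130:IL-6R libraries. Tal1, a master regulator of blood formation, had 909, 935, 938 and 933 CPM in ChimP3V3 cells and 391, 378, 402 and 424 CPM in gp130:IL-6R cells. Against this direction, Lmo2, a partner of Tal1 in the same complex, was 8.33-fold lower at 15.2, 14.1, 6.98 and 13.7 CPM in ChimP3V3 cells, against 106, 108, 104 and 103 CPM in gp130:IL-6R cells. Gata2, a factor of early progenitors and mast cells, was 1.36-fold lower.

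**Figure D2:**
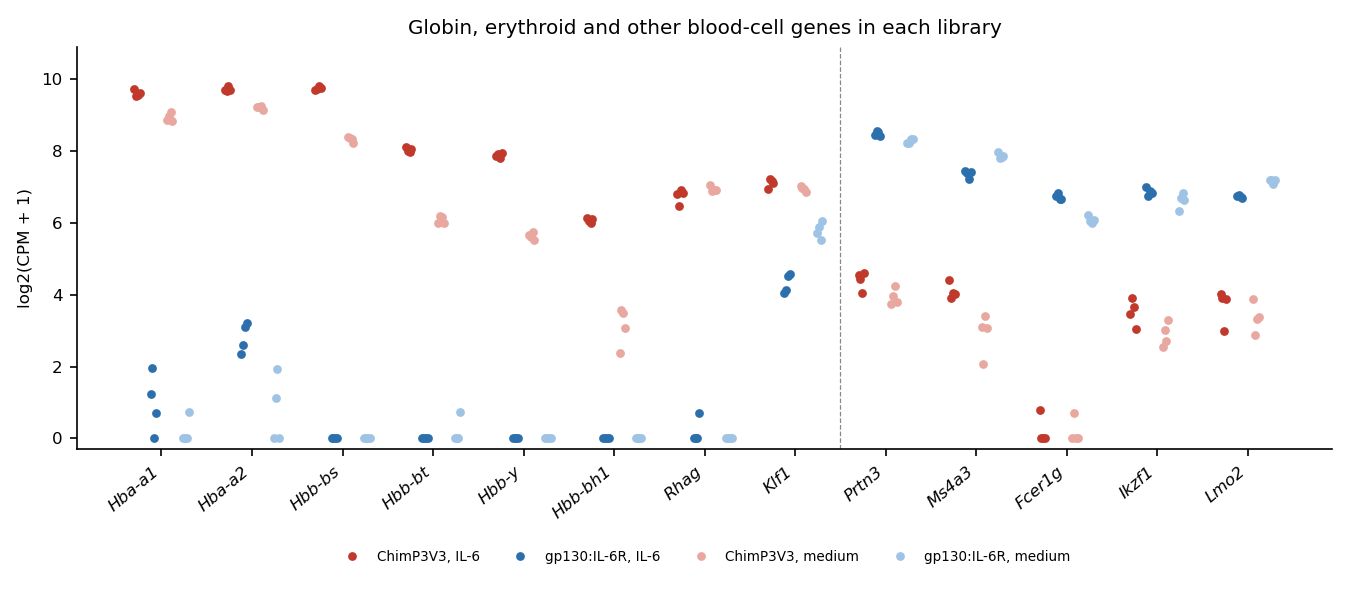
Level as log2(CPM + 1) of 13 blood-cell genes in every library. Genes left of the dashed line are higher and genes right of it lower in ChimP3V3 cells than in gp130:IL-6R cells under IL-6. The beta globins and Rhag lie at or near 0 in gp130:IL-6R cells in both conditions, and Fcer1g lies near 0 in ChimP3V3 cells.

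Granule and neutrophil genes were mostly lower in ChimP3V3 cells. Of 14 tested, 10 were lower and 3 were higher, with a median log2 difference of -3.45, and the list of 32 summed to 495 to 526 CPM in ChimP3V3 cells, against 1196 to 1238 CPM in gp130:IL-6R cells. Members at 0 in ChimP3V3 cells, such as Cebpa, had enough counts under IL-6 in gp130:IL-6R cells alone, which fixed their direction. Prtn3, the granule protease proteinase 3, had 22.4, 20.8, 15.5 and 23.3 CPM in ChimP3V3 cells and 346, 375, 371 and 343 CPM in gp130:IL-6R cells. Ms4a3, a marker of granulocyte and monocyte progenitors, had 20.2, 14.1, 15.5 and 15.3 CPM in ChimP3V3 cells, against 172, 168, 150 and 169 CPM in gp130:IL-6R cells. Cebpe, a factor of late granulocyte maturation, was an exception at 68.7, 58, 55.8 and 56.3 CPM in ChimP3V3 cells, against 12.3, 12.2, 6.93 and 4.42 CPM in gp130:IL-6R cells. Mast cell and basophil genes were divided, with 5 of 9 higher and 4 lower. Cpa3, a mast cell protease, had 53.9 to 65.1 CPM in ChimP3V3 cells and a count in 1 of 4 gp130:IL-6R libraries. Fcer1g, the signalling chain of Fc receptors, had a count in 1 of 4 ChimP3V3 libraries and 106, 113, 100 and 99.8 CPM in gp130:IL-6R cells. Slc18a2, a vesicular monoamine transporter, was high in both, at 1087 to 1141 CPM in ChimP3V3 cells and 561 to 603 CPM in gp130:IL-6R cells.

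Markers of the pro-B label were scarce in both lines. Of 28 markers, 13 had 0 counts in all 8 libraries, among them Rag1, Rag2 and Dntt, and 6 could be tested. The list summed to 145 to 163 CPM in ChimP3V3 cells and 194 to 217 CPM in gp130:IL-6R cells. Ikzf1, the lymphoid factor Ikaros, had 10.1, 14.1, 11.6 and 7.24 CPM in ChimP3V3 cells, against 128, 107, 117 and 114 CPM in gp130:IL-6R cells. Btk, a kinase of B cells and mast cells, was 3.17-fold higher, and Cd79a, a chain of the B cell receptor, was at 0 to 0.804 CPM in ChimP3V3 cells and 9.7 to 16.5 CPM in gp130:IL-6R cells. The pro-B label therefore rests on few markers in these counts. Of 28 macrophage and dendritic cell markers 5 were tested, with 2 higher and 2 lower, and Cd14, Itgax and H2-Aa were at 0. Others on this list were well detected. Ccr2 was at 201 to 216 CPM in ChimP3V3 cells and 116 to 120 CPM in gp130:IL-6R cells. Spi1 was at 35.7 to 40.5 CPM in ChimP3V3 cells and 78.3 to 98.5 CPM in gp130:IL-6R cells. Csf1r was less certain, at 14.9 to 24 CPM in ChimP3V3 cells and a wide 0.693 to 25.9 CPM in gp130:IL-6R cells. It overlaps Hmgxb3 on the opposite strand. On the same list, Adgre1 was at 8.53 to 14.5 CPM in ChimP3V3 cells and 0 in gp130:IL-6R cells. Lyz2 was at 0 to 1.61 CPM in ChimP3V3 cells and 10.1 to 15.8 CPM in gp130:IL-6R cells. Of 29 T and NK cell markers only Gzmb and Lck were tested, both lower, and Cd3e, Cd4 and Cd8a were at 0. Gzmb and Lck had enough counts to be tested only through gp130:IL-6R cells, so the filter fixed their direction. Of 18 fibroblast and epithelial markers 2 were tested, and Vim, the filament vimentin found in blood cells too, was lower at 366 to 428 CPM in ChimP3V3 cells and 494 to 537 CPM in gp130:IL-6R cells. In bulk samples fewer cells of a type and less RNA per cell cannot be told apart.

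Of 38 tested transcription factors of blood cells, 16 were higher and 20 were lower in ChimP3V3 cells, against 31.2% higher and 31.6% lower of all tested genes. Runx1 and Runx3, relatives that bind the same DNA site, differed in opposite directions. Runx1 had 178, 176, 175 and 183 CPM in ChimP3V3 cells, against 33.4, 33, 40.2 and 28.4 CPM in gp130:IL-6R cells. Runx3 had 108, 100, 83 and 105 CPM in ChimP3V3 cells, against 303, 312, 312 and 309 CPM in gp130:IL-6R cells. Elf4, an ETS factor, was at 103, 100, 111 and 104 CPM in ChimP3V3 cells and 0 in gp130:IL-6R cells, at least 206-fold higher.

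The remaining genes with the largest differences were not of 1 kind. Higher in ChimP3V3 cells and at 0 in gp130:IL-6R cells were Abcb4, a phospholipid transporter, at least 352-fold, and Plxdc2, a membrane receptor, at least 236-fold. The potassium channel gene Kcnq3 was at least 233-fold higher, the signalling adaptor Lcp2 (SLP-76) at least 153-fold and the chondroitin sulfate enzyme Csgalnact1 at least 148-fold. The lysophospholipid receptor P2ry10 was at least 141-fold and the secreted chaperone Clu at least 125-fold higher. Lower, and at 0 in ChimP3V3 cells, were the RNA-binding protein Rbpms2, at least 349-fold, the growth factor Gdf3, at least 295-fold, and Il18rap, a chain of the IL-18 receptor, at least 235-fold. The ubiquitin ligase Rnf217 was at least 203-fold lower, Slfn4 of the schlafen family at least 198-fold, Wfdc15a at least 182-fold, and the junction protein F11r at least 160-fold. Ifitm6 was at least 139-fold lower, Gtsf1, known from the piRNA pathway, at least 132-fold, the glycolipid enzyme B3gnt5 at least 130-fold, and Cdc42ep3, an effector of the GTPase Cdc42, at least 121-fold. In all, 91 tested genes were at 0 in the 4 ChimP3V3 libraries and 48 in the 4 gp130:IL-6R libraries. Of those with at least 5 CPM in the other line, 71 of 90 and 35 of 48 were also at 0 in that line in medium.

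Surface genes were divided and secreted genes were mostly lower. Of 26 adhesion and surface genes 10 were higher and 12 lower, against 31.2% higher and 31.6% lower of all tested genes. Itga6, an integrin chain for laminin, had 15.2, 14.9, 17.8 and 23.3 CPM in ChimP3V3 cells and 191, 172, 204 and 174 CPM in gp130:IL-6R cells. The leukocyte integrin chain Itgb2 went the other way, at 99, 106, 91.5 and 84.4 CPM in ChimP3V3 cells and 1.36, 0, 1.39 and 1.26 CPM in gp130:IL-6R cells. Of 17 cytokine and secreted genes, 1 was higher and 11 were lower. Among them was Il6 itself, at 13.7, 18.6, 19.4 and 18.5 CPM in ChimP3V3 cells and 144, 145, 144 and 153 CPM in gp130:IL-6R cells, 8.35-fold lower under IL-6 and 8.85-fold lower in medium. Lgals3, the lectin galectin-3, was 11.7-fold lower.

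S100 and annexin genes were 10 higher and 10 lower of 24 under IL-6, and 15 higher and 6 lower in medium. Over all tested genes the shares in medium were 31.7% higher and 33.4% lower. The difference changed downward with IL-6 in 9 of the 24 and upward in 1, against 11.5% downward and 12.4% upward of all tested genes. S100a4, a calcium-binding protein of motile cells, had 480, 491, 497 and 526 CPM in ChimP3V3 cells, against 102, 95.5, 104 and 102 CPM in gp130:IL-6R cells, 4.93-fold higher. In medium the gap was wider, 31.9-fold (change -2.70, SE 0.139, adjusted p = 7.13e-19). S100a6 was 5.12-fold higher under IL-6 and 10.8-fold higher in medium.

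Survival genes pointed both ways. Of 27 genes of the BCL2 family and its partners 12 were higher and 8 were lower. The shares over all tested genes were 31.2% higher and 31.6% lower. Bcl2, the anti-apoptotic founder of the family, had 835, 850, 801 and 828 CPM in ChimP3V3 cells, against 221, 188, 191 and 210 CPM in gp130:IL-6R cells (log2 difference 2.03, SE 0.0446, adjusted p = 8.25e-34). Its killer relative Bcl2l11 (BIM) was also higher, at 187, 202, 202 and 209 CPM in ChimP3V3 cells, against 67.4, 76.1, 66.5 and 60.6 CPM in gp130:IL-6R cells. Bbc3 (PUMA) was 1.46-fold lower. Of 25 p53 targets 3 were higher and 12 lower under IL-6, while 9 were higher and 5 lower in medium. Btg2, an anti-proliferative p53 target, was 2.91-fold lower, and Zmat3, an RNA-binding p53 target, was 1.59-fold higher. FOXO targets were 9 higher and 7 lower of 21, with Cited2, a regulator of transcription co-activators, 2.54-fold higher and Irs2, an adaptor of the insulin receptor, 27.7-fold lower.

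Cell cycle genes had moderate differences. The 13 tested G1 regulators had 3 higher and 6 lower. Ccnd2, the cyclin D2 that activates Cdk6, had 420, 422, 444 and 473 CPM in ChimP3V3 cells, against 549, 544, 598 and 537 CPM in gp130:IL-6R cells, 1.27-fold lower, while Cdk6 was higher. The inhibitor genes Cdkn1b and Cdkn2c were 1.5-fold higher and 2.2-fold lower. Of 40 replication genes 9 were higher and 14 lower, against 31.2% higher and 31.6% lower of all tested genes, with a median of 0.01. Mcm6, a subunit of the replicative helicase, was 1.84-fold higher, and Rrm2, which makes deoxynucleotides, was 2.46-fold lower. Of 40 mitosis genes 2 were higher and 21 were lower, with a median of -0.21. Ccnb1, the mitotic cyclin, was 1.8-fold lower and Hmmr, a spindle protein, 2.08-fold lower, while the checkpoint gene Mad2l1 was 1.28-fold higher. Without the genes on chromosomes 2, 14, 15 and 16 the lower calls were 6 for replication and 13 for mitosis. Both lists were shorter then, and 27.9% of all tested genes outside those chromosomes were lower.

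Several metabolic and stress lists were one-sided. Cholesterol and fatty acid genes were 22 higher and 4 lower of 33, with a median log2 difference of 0.42. In medium the same list was 12 higher and 11 lower, with a median of 0.03. Idi1, an isomerase of isoprenoid synthesis, had 338, 349, 333 and 348 CPM in ChimP3V3 cells and 142, 131, 132 and 143 CPM in gp130:IL-6R cells, 2.49-fold higher. Cyp51 and Hsd17b7, later enzymes of cholesterol synthesis, were 1.77-fold and 2.03-fold higher, and Elovl6, a fatty acid elongase, was 2.38-fold lower. Cyp51 overlaps Akap9 on the opposite strand.

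Genes of the integrated stress response and amino acid supply were lower in 30 of 34 and higher in 2, with a median of -0.70. Asns, asparagine synthetase, had 32.5, 36.4, 32.6 and 28.1 CPM in ChimP3V3 cells, against 135, 147, 130 and 138 CPM in gp130:IL-6R cells, 4.22-fold lower. Psat1, of serine synthesis, was 1.97-fold lower, and Ppp1r15a, the phosphatase subunit that ends the response, was 1.41-fold higher, though it overlaps Tulp2 on the opposite strand. Leaving out 1 library (replicate 1 or 2 of ChimP3V3, or 1, 3 or 4 of gp130:IL-6R) left 1 higher call on this list. Genes of protein folding in the endoplasmic reticulum were lower in 21 of 27 and higher in 2. Xbp1, the transcription factor of that response, had 158, 173, 165 and 163 CPM in ChimP3V3 cells, against 424, 432, 425 and 415 CPM in gp130:IL-6R cells. P4hb, a disulfide isomerase, was 2.06-fold lower and Crebrf, a negative regulator of the response, was 1.79-fold higher. Heat shock genes were 6 higher and 10 lower of 21, with Hspd1, the mitochondrial chaperonin, 1.68-fold lower and Hspa4l, a co-chaperone of the HSP70 family, 1.77-fold higher. Hspd1 overlaps Hspe1 on the opposite strand.

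Glycolysis and hypoxia genes were 7 higher and 15 lower of 30, against 31.2% higher and 31.6% lower of all tested genes. Slc2a3, the glucose transporter GLUT3, was 4.33-fold lower, and Hk2, hexokinase 2, was 1.63-fold higher. Genes of the antioxidant factor NRF2 were 13 higher and 16 lower of 36. Nfe2l2, which encodes NRF2, was 2.01-fold lower. Gclc, which makes glutathione, had 102, 118, 112 and 122 CPM in ChimP3V3 cells, against 204, 214, 190 and 207 CPM in gp130:IL-6R cells, but was 1.19-fold higher in medium.

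Ribosome biogenesis genes were 3 higher and 29 lower of 52, against 5 higher and 43 lower in medium. Myc was not called under IL-6 and was higher in ChimP3V3 cells in medium, at a mean of 47.2 CPM in ChimP3V3 cells and 36 CPM in gp130:IL-6R cells (log2 difference 0.39, adjusted p = 0.00472). Gnl3, a nucleolar GTPase, was 1.62-fold lower and Mxd4, an antagonist of MYC, was 1.47-fold higher. Gnl3 overlaps Pbrm1 on the opposite strand. Ribosomal protein genes went the other way, with 50 of 82 higher and 6 lower, but with a median difference of only 0.11. Without replicate 3 of ChimP3V3, replicate 4 of ChimP3V3 or replicate 4 of gp130:IL-6R the higher calls were 29, 28 and 27. Rpl22l1, a paralog of the subunit gene Rpl22, was the clearest, 1.89-fold higher, and Rpl24, on chromosome 16, was 1.22-fold lower. Of the 13 mitochondrial genes 10 were higher and 1 was lower, and 6 and 5 were higher without replicate 4 of ChimP3V3 and replicate 4 of gp130:IL-6R. The respiratory chain gene mt-Nd4 was 1.23-fold higher. Histone genes were 3 higher and 15 lower of 23, with the linker histone H1f4 2.39-fold lower. The kit primes on poly(A), which most histone mRNAs lack, and H1f4 overlaps H2bc6.

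Immune genes were more often lower than higher in ChimP3V3 cells. Of 34 interferon-stimulated genes 6 were higher and 14 lower, against 31.2% higher and 31.6% lower of all tested genes. Ifitm3, a membrane protein that blocks virus entry, had 53.5, 54.3, 67.5 and 50.6 CPM in ChimP3V3 cells, against 797, 815, 790 and 803 CPM in gp130:IL-6R cells, 14.2-fold lower. Its neighbour Ifitm1 was 5.26-fold lower, and reads of these similar genes can be shared. MHC class I genes were 4 higher and 13 lower of 22, with a median of -0.61. H2-K1 had 17.4, 14.1, 17.1 and 15.3 CPM in ChimP3V3 cells, against 327, 343, 317 and 298 CPM in gp130:IL-6R cells, 20-fold lower, while H2-D1 was 1.95-fold lower. Counts of these polymorphic, similar genes are uncertain. Tap2, a peptide transporter of the same pathway, was 1.95-fold higher. NF-kB targets were 3 higher and 11 lower of 22, with Rel, a subunit of NF-kB, 3.58-fold lower.

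**Figure D3:**
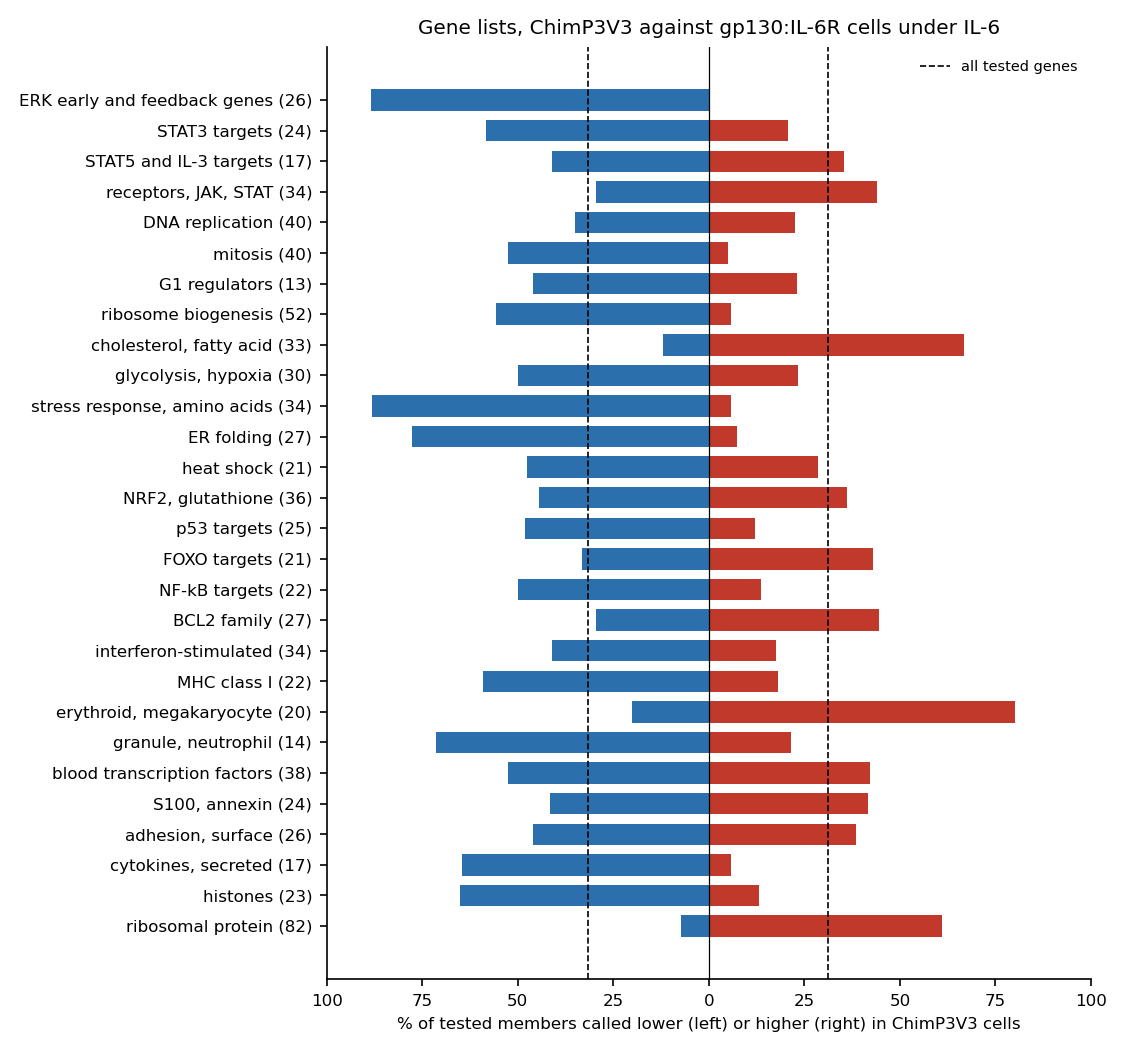
Share of tested members of 28 gene lists (number tested in brackets) called higher (red, to the right) or lower (blue, to the left) in ChimP3V3 cells under IL-6, in %. Dashed lines mark 31.2% higher and 31.6% lower among all 9540 tested genes. The ERK, stress response and ER lists extend far to the left, and the cholesterol, erythroid and ribosomal protein lists to the right.

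Genes on chromosomes 2, 14, 15 and 16 were shifted together. On chromosome 14, 203 of 323 tested genes (62.8%) were lower in ChimP3V3 cells and 39 (12.1%) were higher, with a median log2 difference of -0.61. On chromosome 16, 208 of 309 genes (67.3%) were lower, with a median of -0.41, and on chromosome 2, 389 of 763 (51%), with a median of -0.29. Chromosome 15 was shifted the other way, with 203 of 368 genes (55.2%) higher and a median of 0.31. The medians of the other chromosomes, the mitochondrial genome left out, lay between -0.05 and 0.16.

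The medians were close to these in medium, at -0.58, -0.42, -0.31 and 0.26 for chromosomes 14, 16, 2 and 15. Set against the mean of the gp130:IL-6R libraries, the 4 ChimP3V3 libraries gave medians of -0.59, -0.54, -0.56 and -0.55 for chromosome 14. Chromosome 14 took 2.5% to 2.54% of all counts in ChimP3V3 cells, against 3.33% to 3.35% in gp130:IL-6R cells, and chromosome 15 took 5.1% to 5.14% against 4.23% to 4.29%. When the genes of chromosome 14 were put in order of position and cut into 3 groups of about 108, the medians were -0.02, -0.87 and -0.77. The shift therefore did not cover the chromosome evenly. No DNA was measured in these files.

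Without the 4 chromosomes, 4769 of 7777 genes were called, of which 2601 (33.4%) were higher and 2168 (27.9%) lower. Shifts of parts of the other chromosomes remain in these counts. Taking each chromosome's median away left the ERK list at a median of -1.08, the STAT3 list at -0.42, the stress response list at -0.73 and the cholesterol list at 0.36. A single median per chromosome does not remove shifts of parts of a chromosome, so these medians may still hold such shifts.

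**Figure D4:**
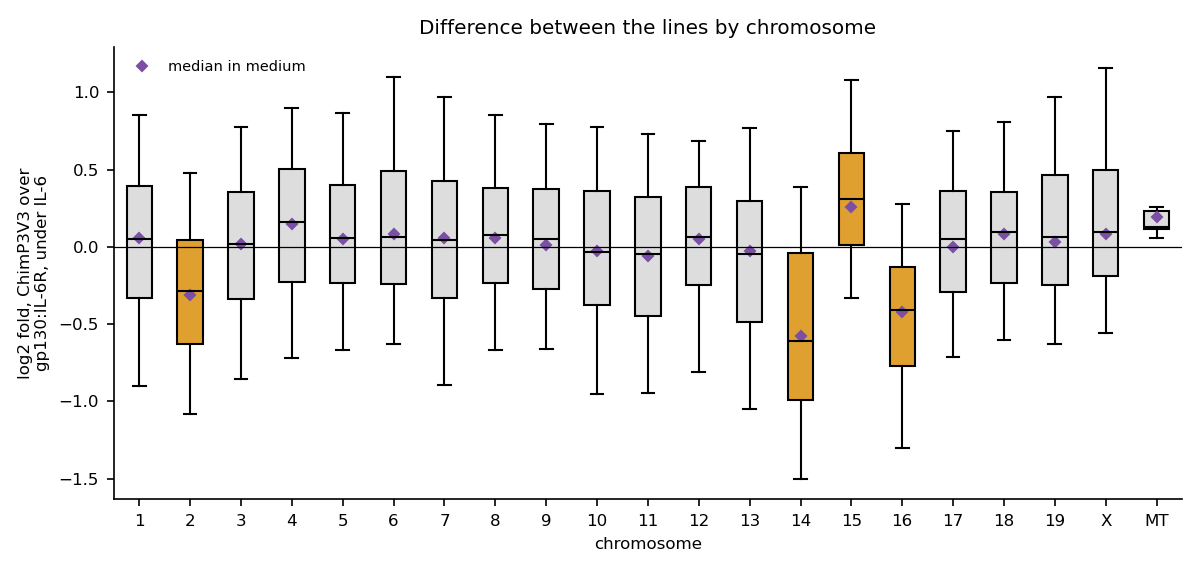
Log2 difference of ChimP3V3 over gp130:IL-6R cells under IL-6 (vertical axis) for the tested genes of each chromosome. Boxes span the quartiles with the median, whiskers the 10th to 90th percentile, and diamonds give the median in medium. Chromosomes 2, 14 and 16 lie below and chromosome 15 above the others, in both conditions.

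Most of the difference between the lines was already there in medium. Of the 9540 genes 6209 (65.1%) were called in medium, and 4359 (45.7%) were called in the same direction in both conditions, 2161 higher and 2198 lower in ChimP3V3 cells. Across genes the log2 differences in the 2 conditions, which share no library, had a Pearson r of 0.92 and a Spearman rho of 0.77. Over the 9108 genes with a count in all 16 libraries these were 0.81 and 0.75. Genes are not independent replicates, so no p is given. Among the 4359 genes the difference itself changed with IL-6 in 815, growing in 401 and shrinking in 414.

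**Figure D5:**
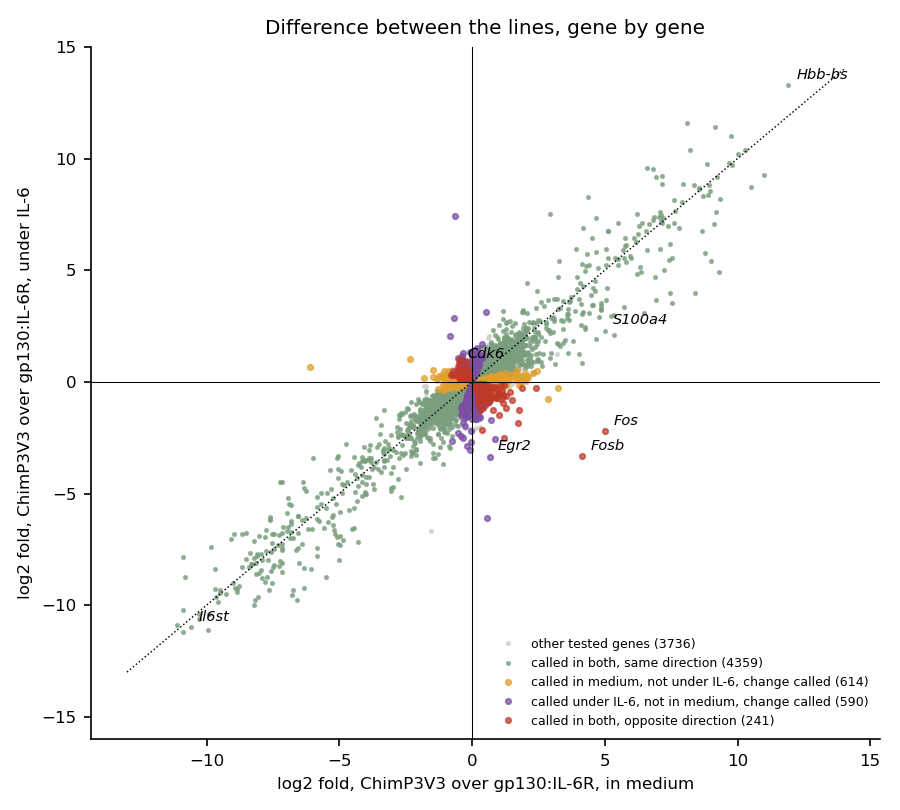
Log2 difference of ChimP3V3 over gp130:IL-6R cells in medium (horizontal axis) and under IL-6 (vertical axis), 1 point per tested gene, coloured by where the difference was called. The dotted line marks equal differences. Most genes follow it, Fos and Fosb lie at the lower right, and the far ends hold genes at 0 in 1 line, whose fitted values depend on the prior count.

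For 2280 genes (23.9%) the difference between the lines changed with IL-6, upward in 1182 and downward in 1098. Of these, 590 (6.18%) were called under IL-6 and not in medium, 283 higher and 307 lower in ChimP3V3 cells. A further 614 (6.44%) were called in medium and not under IL-6. Another 241 (2.53%) were called in opposite directions, 92 of them higher and 149 lower in ChimP3V3 cells under IL-6.

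Among genes that turned from lower in medium to higher under IL-6 in ChimP3V3 cells, Cdk6 was joined by Pik3cd, a catalytic PI3-kinase subunit of leukocytes. Pik3cd had 74.5, 79.5, 71.4 and 73.2 CPM in ChimP3V3 cells, against 38.8, 42.4, 40.2 and 32.2 CPM in gp130:IL-6R cells, 1.95-fold higher, but was 1.35-fold lower in medium. Rars2, a mitochondrial tRNA synthetase, was 1.96-fold higher under IL-6 and 1.39-fold lower in medium, and the growth suppressor Rassf1 was 1.91-fold higher and 1.18-fold lower. Atad3a, a mitochondrial membrane ATPase, was 1.38-fold higher with overlapping libraries. Its adjusted p of 0.0122 became 0.0749 without replicate 4 of ChimP3V3 and 0.0653 without replicate 1 of gp130:IL-6R.

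In the other direction, from higher in medium to lower under IL-6, Fos and Fosb were joined by Trib1, a pseudokinase, at 2.89, 4.46, 4.65 and 3.22 CPM in ChimP3V3 cells and 11.6, 16.5, 15.9 and 12 CPM in gp130:IL-6R cells. Trib1 was 3.61-fold lower under IL-6 and 3.29-fold higher in medium. Angptl2, a secreted protein, was 5.74-fold lower and 2.33-fold higher, though it overlaps Ralgps1. Wfs1, a protein of the endoplasmic reticulum, was 2.38-fold lower and 3.36-fold higher.

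Genes that differed under IL-6 but were not called in medium included a group that was low in ChimP3V3 cells. Egr2, an early growth response factor, had 1.45, 0.743, 1.55 and 0.804 CPM in ChimP3V3 cells, against 15, 12.2, 12.5 and 10.1 CPM in gp130:IL-6R cells (log2 difference -3.35, SE 0.419, adjusted p = 4.26e-09). In medium it averaged 2.88 CPM in ChimP3V3 cells and 1.76 CPM in gp130:IL-6R cells. Ctss, the protease cathepsin S, was 8.15-fold lower, Plaur, the urokinase receptor, 7.36-fold, Scpep1, a serine carboxypeptidase, 6.5-fold, and Slc31a2, a copper transporter, 5.98-fold. Each of these 5 genes had every ChimP3V3 library below every gp130:IL-6R library.

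The 5 genes with the largest changes among those higher under IL-6 and not called in medium had at most 41.1 CPM in any library under IL-6. Tbcd, a tubulin folding cofactor, was 2.47-fold higher at 23.9, 24.5, 24.8 and 35.4 CPM in ChimP3V3 cells and 11.6, 13.6, 9 and 9.47 CPM in gp130:IL-6R cells. Pcyt2, of phosphatidylethanolamine synthesis, was 2.53-fold higher and the zinc finger gene Zc3h6 2.23-fold. Arhgap4, a GTPase-activating protein, was 2.09-fold higher with an adjusted p of 0.00365, but 0.113 with DESeq2, and it overlaps Avpr2, L1cam and Naa10. Gstp2, a glutathione transferase with a close paralog, had 0, 0, 41.1 and 20.1 CPM in ChimP3V3 cells and 0 in gp130:IL-6R cells, so its call rests on 2 libraries. Its log2 difference was 7.45 and became 6.21 without replicate 3 of ChimP3V3, and DESeq2 gave an adjusted p of 0.152. Tbcd overlaps B3gntl1.

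Genes that differed in medium and were not called under IL-6 had closer levels with the cytokine. Plec, the linker protein plectin, which overlaps Parp10, had 111, 104, 99.3 and 117 CPM in ChimP3V3 cells and 125, 112, 123 and 120 CPM in gp130:IL-6R cells under IL-6, with an adjusted p of 0.0908. In medium it was 3.38-fold higher in ChimP3V3 cells, at a mean of 103 CPM in ChimP3V3 cells and 30.2 CPM in gp130:IL-6R cells. Without replicate 1 or replicate 4 of ChimP3V3 under IL-6 the adjusted p was 0.0471 and 0.0284. Sik1, a kinase of the salt-inducible family, had 7.23, 8.18, 7.76 and 8.04 CPM in ChimP3V3 cells and 8.17, 7.9, 7.62 and 6.95 CPM in gp130:IL-6R cells, against a 4.1-fold higher level in ChimP3V3 cells in medium. Trim16 and Rapsn were 9.46-fold and 5.46-fold higher in medium. Trmt61a, a tRNA methyltransferase, was 2.34-fold lower in medium, Spata24 2.52-fold, Camta1, a transcription activator that overlaps Tnfrsf9, Per3 and Vamp3, 2.17-fold, and Tango6 2.81-fold. Tango6 had an adjusted p of 0.094 under IL-6, and 0.0398 without replicate 2 of gp130:IL-6R.

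A pair of genes in that class had libraries that scattered widely within a group. Fam216a had 16.6, 23.8, 17.8 and 12.1 CPM in ChimP3V3 cells and 0.681, 20.8, 0 and 13.3 CPM in gp130:IL-6R cells, and overlaps Gpn3 and Vps29. Its adjusted p under IL-6 was 0.0555, and 0.0038 without replicate 2 of gp130:IL-6R, where the log2 difference of 1.02 became 1.84. It was also under the threshold without replicate 4 of gp130:IL-6R (0.0377), replicate 4 of ChimP3V3 (0.0458), replicate 3 of ChimP3V3 in medium (0.034) and replicate 2 of gp130:IL-6R in medium (0.048). Hmgxb3 had 0, 14.9, 3.88 and 13.7 CPM in ChimP3V3 cells and 10.2, 0, 29.1 and 15.2 CPM in gp130:IL-6R cells, and overlaps Csf1r on the opposite strand. Its log2 difference of -0.77 became -0.12 without replicate 3 of gp130:IL-6R.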

How the data were processed

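RNA of 16 Ba/F3 libraries in 4 groups was read from 3' ends with the Lexogen QuantSeq forward kit from 100 ng of total RNA in single reads of 100 bases, per the labels' protocols. The deposited raw counts per gene were made by the authors with CLC Genomics Workbench 23.0.4 against the GRCm39 genome and Ensembl annotation 107, as stated per the file headers. Neither read filters nor the strand setting are given in the sources used. The authors' deposited log2 fold changes and false discovery rates gave only the counts of genes past 1.5-fold and a false discovery rate of 0.05. Another 48 columns, in RPKM, TPM or CPM, were left aside.

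Genes were kept with filterByExpr (minimum count 10, total 15) and scaled with TMM. The model (glmQLFit and glmQLFTest, edgeR 4.0.16, limma 3.58.1, R 4.3.3) took in the 16 libraries together, as 4 group means with 12 residual degrees of freedom. Contrasts were ChimP3V3 minus gp130:IL-6R under IL-6, in medium, and the change between them, each with Benjamini-Hochberg adjustment over 9540 genes at 0.05. The fit was tested on simulated data. Folds are the model's estimates with SE, or bounds against 3 counts over the group where 1 line had none. Count intervals are exact 95% intervals and cover counting error only. Alternatives were other size factors and filters, DESeq2 1.42.0, limma on log2(CPM + 1), counts thinned to 1275112, a replicate block and each library left out.

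The comparison, the gene lists and the rule for named genes were chosen with earlier results of these data known. The rule named 17 fixed genes and the 12 largest differences per direction with a mean of at least 5 CPM and no overlap. It also named 5 genes per direction of change in each class, and up to 3 and 2 called members per list. Predicted and ribosomal protein genes were not named by size, and some genes under the rule are not reported here. The 35 lists were described by counts and medians, with no set test. List members at 0 were named as markers after their values were seen. Python 3.11.15 with pandas 2.3.3 and matplotlib 3.10.9 made tables and plots.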

Additional observations from a re-analysis of the deposited data

Results flagged for a closer look

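In 16 of 251 groups of 4 libraries (the genes with values in the text with at least 20 counts in that line under IL-6), 1 library lay far from the other 3 by Dixon's test. Chance flags about 1 in 20 such groups, here 12.6, so the number is near that of chance, and some gaps are only a few CPM. In ChimP3V3 cells the highest library stood apart for Cebpe at 68.7 CPM (next 58 CPM), Gab1 at 61.3 CPM (next 40.1 CPM), Jun at 52.8 CPM (next 42.7 CPM), P4hb at 338 CPM (next 312 CPM), Rassf1 at 117 CPM (next 105 CPM) and Tbcd at 35.4 CPM (next 24.8 CPM). In ChimP3V3 cells the lowest library stood apart for H2-D1 at 260 CPM (next 282 CPM), Il6 at 13.7 CPM (next 18.5 CPM), Ptpn6 at 316 CPM (next 329 CPM) and Stat3 at 217 CPM (next 220 CPM). In gp130:IL-6R cells the highest library stood apart for Ifitm1 at 1430 CPM (next 1333 CPM), Il6 at 153 CPM (next 145 CPM), Rars2 at 15.8 CPM (next 12.6 CPM) and Rrm2 at 200 CPM (next 194 CPM). In gp130:IL-6R cells the lowest library stood apart for Cyp51 at 83.8 CPM (next 97 CPM) and Hsd17b7 at 43.6 CPM (next 56.8 CPM).

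For 79 genes named in the text and listed below, and for Ccr2 (0.68), the log2 difference between the lines changed with IL-6. This is by the test of that change itself, at an adjusted p under 0.05 in edgeR's quasi-likelihood test. Not every gene named in the text was covered. Values are the difference of ChimP3V3 minus gp130:IL-6R cells under IL-6, less that in medium. The change was at least 2 upward for Gstp2 (8.10), Fam216a (3.36) and Tango6 (2.04). It lay between 1 and 2 upward for Ms4a3 (1.73), Klf1 (1.67), Tbcd (1.65), Arhgap4 (1.60), Gab1 (1.54), Zc3h6 (1.52), Trmt61a (1.51), Rars2 (1.45), Spata24 (1.45) and Camta1 (1.43). In the same range lay Pcyt2 (1.41), Pik3cd (1.40), Cdk6 (1.30), Atad3a (1.18), Rassf1 (1.17) and Pim1 (1.05). Smaller upward changes were those of Lmo2 (0.82), Itga6 (0.77), Bcl2 (0.72), Idi1 (0.70), Stat5a (0.66), Mcm6 (0.62), Hk2 (0.55), Tnfrsf13b (0.55), Runx3 (0.52) and Tap2 (0.51). In the same range lay Runx1 (0.48), Hspa4l (0.46), Cyp51 (0.44), Ptpn6 (0.29) and Slc18a2 (0.22). Downward by 2 or more were Fosb (-7.46), Fos (-7.20), Egr2 (-4.01), Angptl2 (-3.74), Hmgxb3 (-3.64), Trib1 (-3.57), Trim16 (-3.53), Slc31a2 (-3.44), Wfs1 (-3.0) and Ctss (-2.96). In the same range lay S100a4 (-2.70), Plaur (-2.68), Scpep1 (-2.65), Hba-a2 (-2.07) and Sik1 (-2.01). Between 1 and 2 downward were Rapsn (-1.95), Plec (-1.91), Junb (-1.13), Gclc (-1.09), S100a6 (-1.08) and Vim (-1.07). Smaller downward changes were those of Slc2a3 (-0.91), Rel (-0.88), Asns (-0.86), Cdkn2c (-0.81), Zmat3 (-0.79), Socs2 (-0.77), Cebpb (-0.73), Crebrf (-0.65), Jun (-0.62) and Rrm2 (-0.58). In the same range lay Elovl6 (-0.52), Nfe2l2 (-0.51), Xbp1 (-0.51), Ifitm3 (-0.50), Psat1 (-0.50), P4hb (-0.49), Ifitm1 (-0.44), Mxd4 (-0.36), mt-Nd4 (-0.32) and Ccnd2 (-0.25). In the same range lay H2-D1 (-0.25), Bbc3 (-0.24), Csf2rb (-0.21) and Cited2 (-0.16).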

How the results depend on the processing

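Counts of called genes between the lines under IL-6 stayed within 1.5 times of 5992 with RLE or upper-quartile factors, other filters, DESeq2, limma, thinned counts and an adjusted p under 0.01. Requiring a fold of at least 1.5 gave 3078 genes under IL-6 (1474 higher, 1604 lower), 3111 in medium and 1006 for the change. That fold left 2082 genes in the same direction, 26 in opposite directions, 303 under IL-6 only and 286 in medium only. Opposite directions were called for 148 genes with DESeq2 and 121 at an adjusted p under 0.01, where the change was called for 1453. Leaving out 1 library gave 5712 to 6039 called genes (2649 to 3012 higher, 2891 to 3090 lower), 5967 to 6270 in medium and 2073 to 2200 for the change. The classes then ranged from 4229 to 4322 (same direction), 212 to 235 (opposite), 524 to 593 (under IL-6 only) and 557 to 626 (in medium only).

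Deviations of same-numbered libraries from their group means correlated at -0.0411 to 0.0493. Libraries of a group differed by close to sampling noise, so this check cannot tell whether replicate numbers pair the libraries. With the number as a block, 5957 genes were called under IL-6 (2958 higher, 2999 lower), 6184 in medium and 2254 for the change. Signs changed only for genes that were not called. Sik1 came to -0.00 with the stricter filter and -0.01 with no filter, and ranged from -0.05 to 0.04 on leaving out 1 library. Myc then ranged from -0.05 to 0.06 and Spata24 from -0.06 to 0.40. Arhgap4 was not called by limma on log2(CPM + 1), with an adjusted p of 0.116. Fam216a was called by limma, with no filter, among the 8 IL-6 libraries alone and on thinned counts, and Plec and Hmgxb3 with no filter (adjusted p = 0.0447 and 0.0162). Plec was also called with the stricter filter (0.044). The cause of these changes was not tested. A count of 0 in 1 IL-6 library allows up to 1.89 to 2.4 CPM, which limits what can be said of low genes.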
